A study of Mus musculus with 4 samples.

Results

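The insulin-like growth factor (IGF) axis was followed here through 10 genes: the ligand genes Igf1 and Igf2, the receptor gene Igf1r, the adaptor gene Irs1, and 6 genes of IGF binding proteins, Igfbp2 to Igfbp7. They were chosen by name, with earlier results of these data known. Taking the probe sets of the array whose annotated symbol is one of the 10 gave 22 probe sets of 22690. The cells were of the YAMC line, which was derived from the colon epithelium of young adult mice and is conditionally immortalised. In the untreated group they received no treatment, and in the LGG group they were kept for 16 h in medium conditioned by Lactobacillus GG, a probiotic bacterium. Total RNA went to 4 mouse 430A arrays, 2 per group, and by their titles each of 2 dates holds 1 untreated and 1 LGG array; the earlier is date 1 here and the later date 2. Whether the arrays stand for separate cultures is not stated, so p-values measure the spread between these arrays, which may be technical, and a group given unconditioned medium was not analysed here.

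IGF1 and IGF2 are secreted growth factors that act through the receptor tyrosine kinase IGF1R. The activated receptor phosphorylates adaptors such as IRS1, which pass the signal to PI3 kinase, AKT and TOR. IGF binding proteins hold the ligands outside the cell, carry them, shield them from the receptor and release them when proteases cut the binding protein. In the gut the axis is known for supporting growth of the epithelium, with much of the IGF made by cells of the underlying mesenchyme.

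The arrays had trimmed mean intensities of 500.1 to 513.5, and their number limits the precision of every value. Of the 22 probe sets, 12 were tested, covering 9 of the 10 genes. A further 6 had a mean intensity under the minimum of 101, among them both probe sets of Igfbp5, and 4 had no value on either array of date 1. Marker genes went in part against the epithelial label. Of 15 epithelial markers 6 were bright enough to test, and the keratin genes Krt8 and Krt18 measured 431 to 653.3 and 834.8 to 1966.8, while Epcam measured 6 to 9 and Cdh1, the E-cadherin gene, 8.7 to 41.8. Other epithelial markers were well measured, with Krt7 at 273.1 to 684.4, Krt19 at 577.9 to 1153.4 and Tjp1 at 1091.2 to 1728.9. Of 13 fibroblast and mesenchymal markers 8 were tested, with Vim at 9532 to 12488.5 and Col1a1 at 6568.6 to 10156.3. Others of that list were dim, with Pdgfrb at 48.2 to 80.1, Lum at 59.8 to 88.6 and Thy1 at 51.4 to 93.7. Of 10 immune cell markers 2 were tested, Csf1r at 182.1 to 278 and Cd68 at 101.2 to 289, while the pan-leukocyte marker Ptprc measured 15.4 to 37.2. Of 6 endothelial markers 1 was tested, Kdr at 128.9 to 396.5. In a bulk sample such as this, fewer cells of a type and less RNA per cell cannot be told apart.

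Igfbp3 was the only member that passed the test, and it was lower in LGG medium at each date. Igfbp3 encodes the main carrier of IGFs in the circulation and binds IGFs around the cells that secrete it. Its probe set, 1423062_at, measured 4511.8 untreated at date 1 and 3903.4 untreated at date 2, against 1817 and 355.7 in LGG medium. Both LGG arrays lay under both untreated arrays, the groups did not overlap, and the LGG array of date 2 was the lowest by far. The intensity was 2.48-fold lower in LGG medium at date 1 and 11-fold lower at date 2. From 4208 ± 430 (SD, n = 2) untreated to 1086 ± 1033 (SD, n = 2) in LGG medium, the log2 change was -2.33 ± 0.33 (SE; limma with date as a block, adjusted p = 0.00129), the fourth lowest of 6952 genes tested. Fold changes from the fit are on log2(intensity + 25.2), which understates the change of dim genes. The dates differed in size, with log2 ratios of -1.30 and -3.37, and this difference cannot be tested with 1 array per group and date. The SE of 0.33 rests mostly on variance shared across genes and understates the spread of these 2 ratios, so the adjusted p does too. Without date as a block the adjusted p was 0.108, and with no filter on dim probe sets it was 0.123 (limma). Dropping LGG replicate 1 gave a log2 change of -3.47, and dropping LGG replicate 2 one of -1.20. Without untreated replicate 1 or untreated replicate 2 the log2 change was -2.23 or -2.44. These fits had no block and left 1 array in a group. Their spread came from the other group alone, so their p-values are no check of the call.

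Among the 9 genes tested, 1 fell, 0 rose and 8 did not pass (limma, threshold 0.05; 1 gene at an unadjusted p under 0.05). Over all 6952 genes 3.50% were called lower and 3.01% higher, so 1 call among 9 genes is a small count to read against the background. The median log2 change was -0.27 for the 9 genes and 0.03 for all genes tested. Because the members were chosen with earlier results of these data known, the count and the median only describe them. Igfbp3 was also the only tested member at least 2-fold lower at both dates, as were 1.25% of all genes. With 2 arrays per group, an exact permutation test of any single gene could not give a two-sided p under 0.333.

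**Figure D1:**
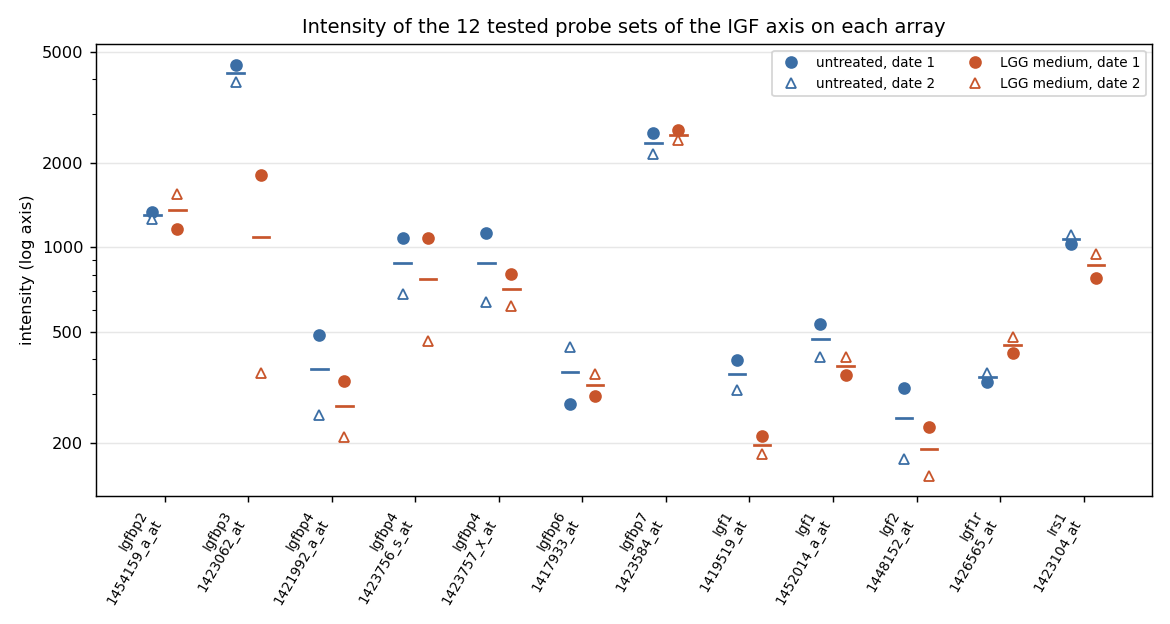
Intensity (log axis) of the 12 tested probe sets on each of the 4 arrays, with untreated arrays in blue, LGG arrays in orange, date 1 as filled circles, date 2 as open triangles and short lines for the group means. The LGG points of Igfbp3, at 1817 and 355.7, lie under both untreated points at 4511.8 and 3903.4, while most other probe sets have mixed or adjoining points.

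The promoter sequences of Igfbp3, Igfbp5, Igf1 and Igfbp7 are shown because Igfbp3, 1 probe set of Igfbp5 and 2 of Igf1 were lower in LGG medium, whereas Igfbp7 is the binding protein gene whose levels lay closest together. Each is the 250 bases before the annotated start, 5′ to 3′ on the gene's strand, from RefSeq on GRCm38.p6. Capitals mark matches, on either strand, to the motifs given after the sequences.
Igfbp3, chr11:7213924-7214173, minus strand: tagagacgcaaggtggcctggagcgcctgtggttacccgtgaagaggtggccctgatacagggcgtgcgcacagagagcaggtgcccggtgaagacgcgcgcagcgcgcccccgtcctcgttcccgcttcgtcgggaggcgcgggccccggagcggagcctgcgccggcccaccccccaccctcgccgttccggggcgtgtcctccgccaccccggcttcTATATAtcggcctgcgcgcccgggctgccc
Igfbp5, chr1:72874866-72875115, minus strand: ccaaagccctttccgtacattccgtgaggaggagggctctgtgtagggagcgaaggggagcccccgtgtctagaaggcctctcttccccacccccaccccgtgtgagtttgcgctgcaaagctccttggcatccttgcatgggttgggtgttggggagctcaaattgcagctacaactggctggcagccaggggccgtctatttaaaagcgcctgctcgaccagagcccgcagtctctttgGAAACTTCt
Igf1, chr10:87860861-87861110, plus strand: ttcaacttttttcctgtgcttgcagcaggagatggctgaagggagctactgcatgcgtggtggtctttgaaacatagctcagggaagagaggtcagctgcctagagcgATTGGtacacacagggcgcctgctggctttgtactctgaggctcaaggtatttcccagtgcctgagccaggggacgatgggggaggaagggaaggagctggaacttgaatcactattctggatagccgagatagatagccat
Igfbp7, chr5:77408046-77408295, minus strand: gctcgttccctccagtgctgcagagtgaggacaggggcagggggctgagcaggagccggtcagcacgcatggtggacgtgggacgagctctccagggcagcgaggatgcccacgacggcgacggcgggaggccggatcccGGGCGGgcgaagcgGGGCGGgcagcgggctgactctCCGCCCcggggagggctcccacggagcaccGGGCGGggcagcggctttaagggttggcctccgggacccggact

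All 10 genes had an entry among the RefSeq promoters, 14 start sites in all. The windows were searched on both strands for motifs spelled as follows, and no matches overlapped in the sequences shown. The TATA box was taken as TATAAA. A run of alternating T and A was taken as TATATA. The CCAAT box was searched by its own name. For the GC box the letters were GGGCGG, and for the E-box they were CACGTG. Inverted units of the heat shock element were searched as GAANNTTC. The core bound by FOXO factors was taken as GTAAACA. In Igfbp3 the match was TATATA, whose first base lay 30 bases before the start, and 5.25% of 32851 promoters of the same length hold TATATA. Igfbp5 held GAANNTTC, which 6.69% of promoters hold, from 9 to 2 bases before the start. Igf1 held 1 CCAAT box on the opposite strand, 142 to 138 bases before the start, where 33.8% of promoters hold one. Igfbp7 held 4 GC boxes, 3 on the gene's strand and 1 on the other, and 32.7% of promoters hold at least 1. Over the 14 start sites, TATAAA was found in Igfbp4 and Igfbp6 (12.4% of all promoters), CACGTG in Igfbp2 and Irs1 (6.02%) and GTAAACA in 0 (3.17%). The TATAAA of Igfbp4 lay on the gene's strand, 28 to 23 bases before the start. That of Igfbp6 lay on the opposite strand, 148 to 143 bases before the start. The GC content of the window was 73.2% for Igfbp3, 58.8% for Igfbp5, 52.8% for Igf1 and 74% for Igfbp7, against a median of 52.4% over all promoters. A match is a string of letters and not a bound site, and the probe sets do not tell which start site was used.

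The ligand gene Igf1 had 3 probe sets that did not move alike. On 1419519_at it measured 396.6 and 308.3 untreated, at dates 1 and 2, and 212.3 and 181.8 in LGG medium. The groups did not overlap, and the intensity was 1.87-fold and 1.70-fold lower at dates 1 and 2. The log2 change was -0.76 ± 0.25 (SE) and did not pass (limma, adjusted p = 0.0909). On 1452014_a_at, the brightest of the probe sets tested, Igf1 measured 534.1 and 404.4 untreated and 348.7 and 405.4 in LGG medium. Here the LGG arrays overlapped the untreated ones, the intensity was lower at date 1 alone, and the log2 change was -0.29 ± 0.25 (adjusted p = 0.564). The third probe set, 1437401_at, had values at date 2 alone, 529.5 untreated and 106 in LGG medium. That is 5-fold lower on 1 pair of arrays, with no replicate check. Of 3675 probe sets that lacked date 1 values and were bright enough at date 2, 4.73% were at least 2-fold lower there, and 7, this one included, were lower by at least as much. When the tested probe sets of a gene were averaged, the log2 change of Igf1 was -0.52 (adjusted p = 0.119).

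Igf2, the fetal ligand gene, which is imprinted and expressed from the paternal allele, measured 313.9 and 175.2 untreated and 228.7 and 152.8 in LGG medium on 1448152_at. The groups overlapped, with the LGG array of date 1 above the untreated array of date 2, and the log2 change was -0.29 ± 0.26 (adjusted p = 0.575). The other Igf2 probe set, 1415931_at, was dim, at 4.1 to 64.2, with opposite signs at the dates, and was not tested.

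Igf1r, the receptor that both ligands activate, was slightly higher in LGG medium at both dates on its brighter probe set. On 1426565_at it measured 330.1 and 355.8 untreated and 419.2 and 478.3 in LGG medium. The groups did not overlap, but the log2 change of 0.36 ± 0.23 did not pass (adjusted p = 0.426). The dim probe set 1452108_at, at 28.5 to 77.6, was lower at both dates, so the 2 probe sets of Igf1r disagreed in sign. Irs1, the adaptor downstream of the receptor, measured 1031 and 1104.5 untreated and 776.7 and 950.8 in LGG medium. The LGG arrays lay under the untreated ones, 1.33-fold and 1.16-fold lower at dates 1 and 2, and the log2 change of -0.30 ± 0.21 did not pass (adjusted p = 0.457).

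Groups without overlap were common on these arrays. Of the 12 tested probe sets, 3 had both LGG arrays under both untreated arrays (Igfbp3, Irs1 and 1 of Igf1), against 23.6% of all 10333 probe sets tested, and 1 had both over (Igf1r), against 23.4%. Separation of the arrays alone therefore did not set Irs1 or Igf1r apart from other probe sets.

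**Figure D2:**
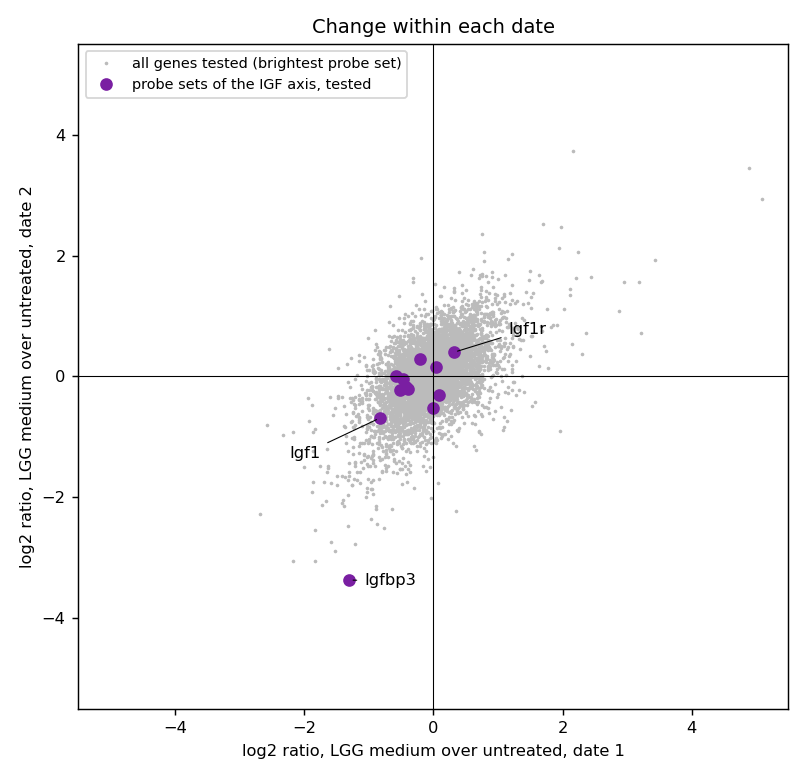
Log2 ratio of LGG medium over untreated at date 1 (x axis) and date 2 (y axis), on log2(intensity + 25.2), for 6952 genes in grey and the 12 tested probe sets of the IGF axis in purple. Igfbp3 lies at -1.30 and -3.37, far below the other members, which lie within the cloud of genes.

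Igfbp4, whose product binds both IGFs and is the classic substrate of the protease PAPP-A, was covered by 6 probe sets. On the brightest tested one, 1423756_s_at, it measured 1077.6 and 680.3 untreated and 1077.8 and 462.9 in LGG medium. The values at date 1 were nearly equal and that of LGG medium was 1.47-fold lower at date 2. On 1423757_x_at the values were 1122.2 and 636.7 untreated and 802.3 and 616.3 in LGG medium, lower at date 1 and nearly level at date 2. On 1421992_a_at they were 485.9 and 251 untreated and 332.6 and 210.8 in LGG medium. All 3 log2 changes were negative, -0.27, -0.26 and -0.37, with SE of 0.22 to 0.24, and none passed (adjusted p = 0.564, 0.569 and 0.435). The groups overlapped on all 3, with the LGG array of date 1 above the untreated array of date 2 on each. At date 2 alone, 1437405_a_at measured 1188.3 untreated and 898.2 in LGG medium, and 1437406_x_at measured 971.8 and 570.7. The sixth, 1421991_a_at, was dim, at 10.1 to 50.2.

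Igfbp5 encodes a binding protein that also attaches to extracellular matrix, and neither of its probe sets reached the minimum for testing. On 1452114_s_at it measured 102.1 and 144.8 untreated and 54.2 and 9.3 in LGG medium. The groups did not overlap, and the intensity was 1.88-fold lower at date 1 and 15.6-fold lower at date 2. On 1422313_a_at, the brighter, it measured 90.8 and 99.3 untreated and 129.5 and 68.8 in LGG medium, higher at date 1 and lower at date 2, so the 2 probe sets disagreed. With no filter, the log2 changes were -1.49 ± 0.43 on 1452114_s_at and 0.00 ± 0.33 on 1422313_a_at, and neither passed (limma, adjusted p = 0.217 and 0.997). No detection calls were used here, so how far these values lie above background is unknown.

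**Figure D3:**
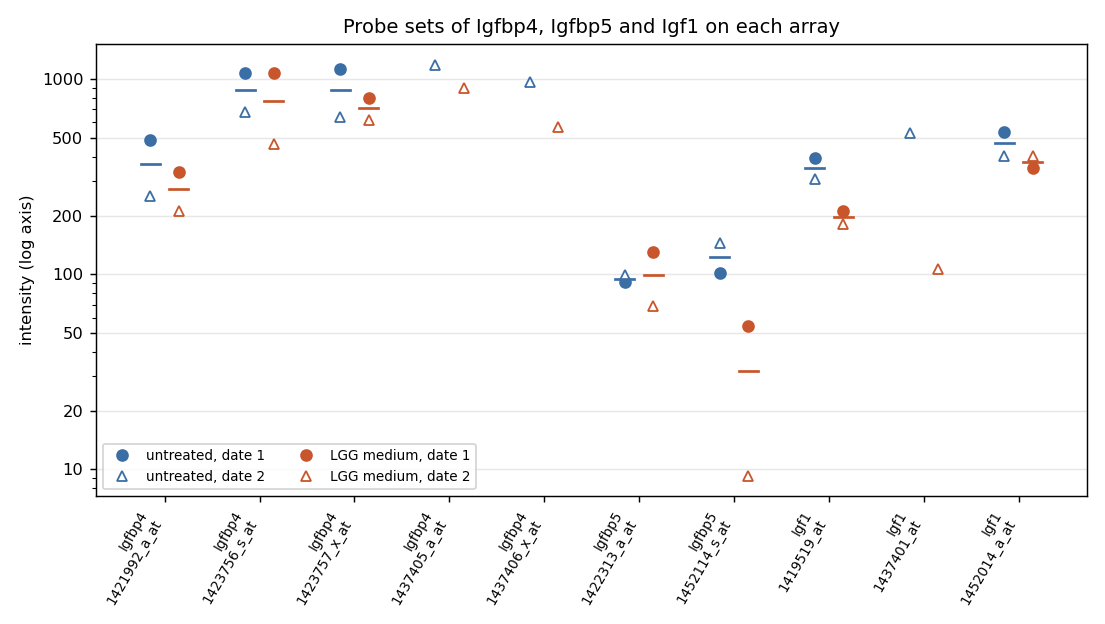
Intensity (log axis) on each array of 10 probe sets of Igfbp4, Igfbp5 and Igf1, with untreated arrays in blue, LGG arrays in orange, date 1 as filled circles, date 2 as open triangles and lines for group means where both dates had values. The probe sets with triangles alone have no value at date 1, and 1437401_at of Igf1 drops from 529.5 to 106 there.

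Of the 9 tested members, Igfbp2, Igfbp6 and Igfbp7 had the smallest fitted changes. Igfbp2, whose product favours IGF2 and carries an integrin-binding motif, measured 1342.7 and 1268.1 untreated and 1161.4 and 1555.8 in LGG medium. It was lower at date 1 and higher at date 2, with a log2 change of 0.04 ± 0.21 (adjusted p = 0.942). Igfbp6, whose product also prefers IGF2, measured 275.6 and 440.5 untreated and 294 and 352.4 in LGG medium. Both LGG values lay between the untreated ones, and the log2 change was -0.11 ± 0.24 (adjusted p = 0.859). Igfbp7, a matrix-associated relative with weak affinity for IGFs, measured 2571.1 and 2158.6 untreated and 2635.4 and 2416.7 in LGG medium. It was 1.03-fold and 1.12-fold higher at dates 1 and 2, with a log2 change of 0.10 ± 0.17 (adjusted p = 0.804). The other Igfbp7 probe sets were dim, with 26.7 to 47.3 on 1423585_at and 33.8 and 33.2 at date 2 on 1437804_at. With an SE of 0.17 to 0.24, these tests do not show that the levels were equal.

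Around the members, 4 lists of other genes of the pathway were counted in the same fit, and 2 of their 42 tested genes rose and 2 fell. Over all genes tested, the background for each of these lists, 3.01% were called higher and 3.50% lower. These lists too were chosen with earlier results of these data known, so their counts are a description. Of 10 other ligand, binding protein, receptor and substrate genes tested, of 18 listed, 1 fell and 0 rose (median log2 change 0.00). That gene was Grb10, an adaptor that restrains signalling from the insulin and IGF1 receptors. On 1425458_a_at it measured 3961.4 and 4803.1 untreated and 2868.8 and 2513.4 in LGG medium, a log2 change of -0.69 ± 0.17 (adjusted p = 0.0249), and the probe set 1425457_a_at changed by -1.41 ± 0.26 (adjusted p = 0.00608). Grb10 on 1425458_a_at did not pass without date as a block (adjusted p = 0.12), with median scaling (0.0756) or without an intensity trend (0.137). Lrp1, a scavenger receptor that has been described as a receptor for IGFBP3, had a log2 change of -0.59 ± 0.20 (adjusted p = 0.0989), and Gab1 and Igf2r, the receptor that clears IGF2, had -0.43 and -0.42, none passing. Igfbp1, Igfals and Igfbpl1 were dim on every array, at 5.6 to 47.3 in the brightest probe set of each. Irs2 had values at date 2 alone, 85.5 untreated and 12.5 in LGG medium.

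Of 11 genes of proteases that cut IGF binding proteins and of their inhibitors, of 17 listed, 1 fell and 0 rose (median -0.09). Adam12, a metalloprotease known to cut IGFBP3 and IGFBP5, measured 390.6 and 579.9 untreated and 148.7 and 148.8 in LGG medium on 1421172_at, with no overlap. Its log2 change was -1.53 ± 0.26 (adjusted p = 0.00353; 0.0497 without date as a block and 0.11 with no filter), and its second probe set changed by -0.99 ± 0.33 without passing (adjusted p = 0.0935). C1ra (-0.61), Htra1 (0.46), whose product cuts IGF binding proteins, and Ctsd (0.40), the cathepsin D gene, did not pass. Pappa, the gene of PAPP-A, had values at date 2 alone and was 2.65-fold lower there, at 650.2 untreated and 245.5 in LGG medium. Pappa and Irs2 were named after their values were seen.

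Of 19 genes of PI3 kinase, AKT, FOXO and TOR tested, of 32 listed, 1 rose and 0 fell (median -0.08). Gsk3b, a kinase that AKT inhibits, measured 402 and 243.3 untreated and 762.4 and 531.8 in LGG medium, a log2 change of 0.97 ± 0.23 (adjusted p = 0.0247; 0.175 without date as a block). Tsc2, a brake on TOR (-0.74 ± 0.23, adjusted p = 0.0731), Pik3ca (-0.49) and Phlpp1 (0.35) did not pass. The other tested probe set of Pik3ca changed by -0.12, with log2 ratios of 0.38 and -0.63 at dates 1 and 2. Of 2 genes of Igf2 mRNA-binding proteins tested, Igf2bp1 rose and Igf2bp3 (0.47) did not pass. Another tested probe set of Igf2bp3 changed by 0.08, with log2 ratios of -0.34 and 0.50 at dates 1 and 2. Igf2bp1 measured 128.2 and 268.1 untreated and 516.9 and 491.6 in LGG medium on 1449210_at, a log2 change of 1.32 ± 0.28 (adjusted p = 0.0128; 0.105 without date as a block). The other probe set of Igf2bp1 gave 0.45 ± 0.25 and did not pass (adjusted p = 0.333). None of Grb10, Adam12, Gsk3b and Igf2bp1 passed with no filter on dim probe sets. With 1 array left out, log2 changes ranged from -0.83 to -0.56 for Grb10 and -1.80 to -1.26 for Adam12. For Gsk3b they ranged from 0.63 to 1.30 and for Igf2bp1 from 0.85 to 1.79. Those fits left 1 array in a group, so no calls are read from them.

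**Figure D4:**
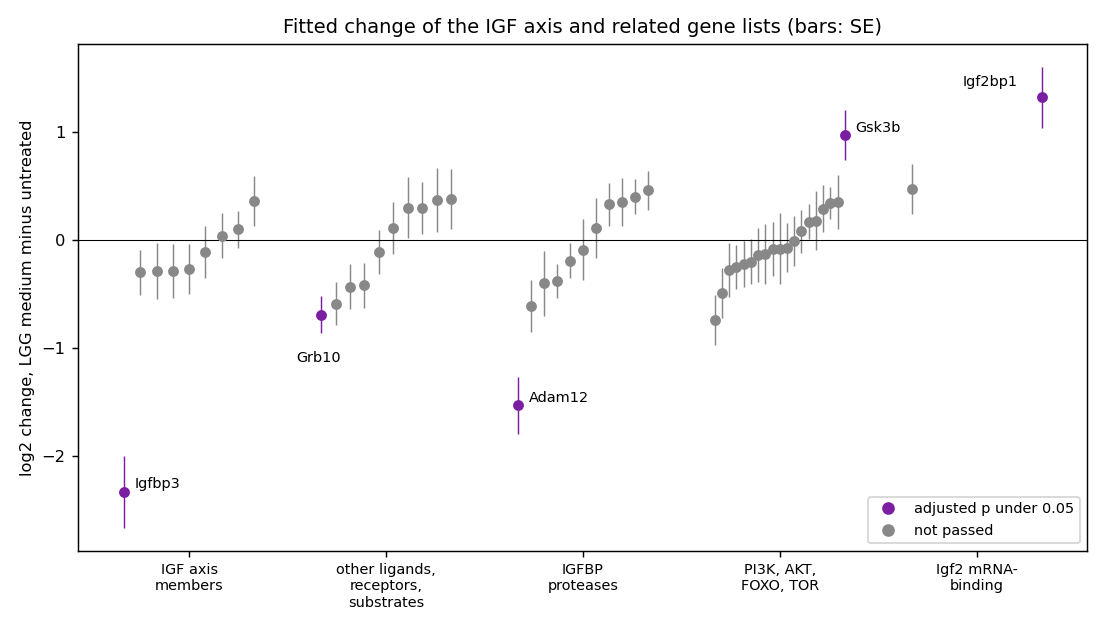
Fitted log2 change, LGG medium minus untreated, of each gene tested in the IGF axis and in 4 related lists, ordered within each list, with bars for the SE. Genes with an adjusted p under 0.05 are purple and named: Igfbp3 at -2.33, Adam12 at -1.53, Grb10 at -0.69, Gsk3b at 0.97 and Igf2bp1 at 1.32.

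The genes most like Igfbp3 over the 4 arrays were found by the Euclidean distance between centred log2 values, among all genes tested. They were Cxcl5, a neutrophil chemokine (distance 0.46), Ppp2r2b, a phosphatase subunit (0.60), Tle3, a transcriptional corepressor (0.73), Medag (0.88) and Mt1, a metallothionein (0.92). Each was lower in LGG medium at both dates and more so at date 2, which follows from choosing them by their likeness to Igfbp3. Cxcl5 measured 4476 and 3715 untreated and 1919 and 517.5 in LGG medium, and Tle3 measured 565.1 and 491.3 untreated and 321.8 and 65.2 in LGG medium. With 4 arrays, likeness of this kind is a description of the arrays.

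Some marker genes of several cell types passed the test. Their counts are given beside the same background of 3.50% lower and 3.01% higher. Marker genes were picked after their values were seen, so the counts cannot be read as an excess over that background. Of the 8 fibroblast and mesenchymal markers tested, 2 fell, 0 rose and 6 did not pass (median log2 change -0.34). Those that fell were Dcn (-0.91 ± 0.13, adjusted p = 0.0014) and S100a4 (-0.91 ± 0.22, adjusted p = 0.0285), while Col1a1 (-0.04, adjusted p = 0.902) and Acta2 (-0.02, adjusted p = 0.952) were among those that did not pass. The summed intensity of the 8 was 39760 and 34457 untreated, at dates 1 and 2, and 31023 and 27885 in LGG medium. This sum is weighted to the brightest genes, among them Col1a1, Vim and Dcn. Dcn alone measured 7734.1 and 8376.2 untreated and 4084.9 and 4473.8 in LGG medium. Of the 2 immune cell markers tested, Cd68, a macrophage marker, rose, from 146 and 101.2 untreated to 274.1 and 289 in LGG medium (1.06 ± 0.27, adjusted p = 0.0314), and Csf1r did not pass (-0.12, adjusted p = 0.861). The summed intensity of these 2 was 424 and 283.3 untreated and 456.5 and 519.5 in LGG medium. The immune markers too dim to test did not go one way. Lyz2 was lower at both dates, at 116.7 and 146.9 untreated and 98 and 14.7 in LGG medium. Tyrobp and Itgam, at 8.8 to 57.4, were higher at both dates, and the others had opposite signs at the dates. The endothelial marker Kdr, a receptor for vascular endothelial growth factor, rose from 136.2 and 128.9 untreated to 396.5 and 329.2 in LGG medium (1.29 ± 0.25, adjusted p = 0.00923). The endothelial genes Pecam1, Cdh5, Tek and Tie1 were too dim to test, at 1.5 to 149.4, and did not all go with Kdr. Tek measured 149.4 and 96.1 untreated and 36.8 and 51.4 in LGG medium. Pecam1 measured 48 and 34.1 untreated and 12.1 and 21.3 in LGG medium, so both were lower at each date. Cdh5 had opposite signs at the dates, and Tie1, at 1.5 to 3.8, was slightly higher at both. The summed intensity of the 6 tested epithelial markers was 4461 and 5735 untreated, at dates 1 and 2, and 4871 and 4706 in LGG medium, and 0 passed (3 at an unadjusted p under 0.05, limma). Those 3 moved in opposite directions, which the sum hides: Krt18 had a log2 change of 0.66, Krt19 of -0.72 and Krt7 of -0.81. None of Dcn, S100a4, Cd68 and Kdr passed with no filter, where limma called 0 genes in all. With 1 array left out, log2 changes ranged from -0.97 to -0.84 for Dcn and -1.35 to -0.47 for S100a4. For Cd68 they ranged from 0.84 to 1.28 and for Kdr from 1.17 to 1.42. Those fits left 1 array in a group, so no calls are read from them. Without date as a block Dcn alone of these 4 passed (adjusted p = 0.0464; 0.175 for S100a4, 0.109 for Cd68 and 0.0622 for Kdr). Without an intensity trend Dcn (0.0541) and S100a4 (0.0988) did not pass, nor did S100a4 with median scaling (0.0836). RNA integrity, read from the Gapdh control probe sets as 3′ over 5′ signal, was 0.805 and 0.931 for untreated and LGG at date 1, and 0.784 and 0.768 at date 2. The same ratio for beta-actin was 1.11 and 1.2 at date 1, and 1.08 and 1.05 at date 2. The part of these in the change of Igfbp3 was not tested.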

How the data were processed

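Total RNA from YAMC cells was profiled on 4 arrays, per the labels. The deposited file is a single table of intensity values on a linear scale, as the authors made it; the software, scaling and filters are not given in the sources used here. Both arrays of date 1 lacked values for the same 6307 probe sets. The members and lists were chosen with earlier results of these data known.

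Names came from the platform annotation supplied with the table. Without the 64 control probe sets, 16319 were complete over the 4 arrays. Of these, 10333 probe sets for 6952 genes reached a mean intensity of 101, which is 20% of the trimmed mean, and entered the fit. A gene stood by its brightest probe set. The pseudocount was 25.2 (5% of the trimmed mean).

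Tests were two-sided, with limma 3.58.1 in R 4.3.3 (terms for group and date; eBayes, trended on intensity; Benjamini-Hochberg over all probe sets, threshold 0.05), and the fit was tested on simulated data, where it recovered the changed probe sets but made more false calls than the nominal share. The titles pair the arrays by date: the date differences of the 2 groups correlated at 0.27 across probe sets. The fit had 1 residual and 12.5 prior degrees of freedom, so each SE rests mostly on variance shared across genes. The text names all members, every gene of the other pathway lists that passed and up to 3 more per list with the largest change of one sign at both dates, and the 5 genes nearest to the member with the largest change. Marker genes were picked after their values were seen. Alternatives covered the block, pseudocount, filter, scaling, trend, probe set averaging and each array left out; for the marker genes that passed, they were added after seeing the data. Figures used matplotlib 3.10.9.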

Additional observations from a re-analysis of the deposited data

Results flagged for a closer look

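Of the 12 tested probe sets, 4 had log2 ratios of opposite sign at dates 1 and 2, a difference that was not tested: Igfbp2 at -0.21 and 0.29, Igfbp6 at 0.09 and -0.30, Igfbp4 on 1423756_s_at at 0.00 (1077.6 and 1077.8) and -0.53, and Igf1 on 1452014_a_at at -0.58 and 0.00 (404.4 and 405.4). Counted by gene on the brightest probe set, that is 4 of 9 members (44.4%), against 34.8% of all genes tested.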

How the results depend on the processing

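Igfbp3 kept its direction under every alternative run. Its call held under a pseudocount of 1 or 10% of the trimmed mean and a filter at 50%. It also held with quantile normalization, median scaling, no trend and averaged probe sets. Without date as a block, limma called 61 genes, 0 of the members (1 at an unadjusted p under 0.05) and 1 of the other pathway genes. With no filter on dim probe sets it called 0 genes (1524 at an unadjusted p under 0.05), 0 members (1) and 0 other pathway genes (10). Without an intensity trend it called 244 genes. With probe sets averaged per gene it called 950 genes and 7 other pathway genes, against 452 and 4, but there the prior degrees of freedom were estimated at 295 against 12.5, from 1 residual degree of freedom. With 1 array left out, in fits without the block, it called 0 to 428 genes (485 and 533 at an unadjusted p under 0.05 without untreated replicate 1 and 2), 0 to 1 members and 0 to 1 other pathway genes. Those fits turned the sign of some changes, none of which passed with all 4 arrays. The changes ranged from -0.16 to 0.25 for Igfbp2, -0.42 to 0.21 for Igfbp6 and -0.03 to 0.22 for Igfbp7. That of Igf2 ranged from -0.67 to 0.09 and that of Htra1 from -0.12 to 1.03. For Igfbp4 the changes ranged from -0.85 to 0.32 on 1423756_s_at, -0.66 to 0.14 on 1423757_x_at and -0.81 to 0.07 on 1421992_a_at. The cause was not tested. Detection calls were not used here, so signal over background limits what can be said of dim probe sets.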

Other observations

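The dates differed for some genes of the axis in both groups. Htra1, which encodes a secreted protease, measured 1060.1 and 1405.5 on the untreated and LGG arrays of date 1 and 2191.9 and 3151.7 on those of date 2, log2 differences between the dates of 1.03 untreated and 1.15 in LGG medium. Igfbp4 was lower at date 2 on each of its tested probe sets, by log2 differences of -0.64 to -0.89 untreated and -0.37 to -1.18 in LGG medium. Igf2 on 1448152_at differed by -0.76 untreated and -0.51 in LGG medium. Igfbp3 differed by -0.21 untreated and -2.27 in LGG medium.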
